A study of Mus musculus with 18 samples.

Results

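RNA was measured in mouse thyroid tumours that carried BrafV600E and no Tert allele, and in thyroid cells without any Braf mutation. The comparison took 7 of the 18 libraries in the series, chosen by the genotype in the labels. The 4 Braf tumours have the genotype BrafV600E and nothing else. The other side is 3 libraries, each a pool of samples: one from wild-type mice, one with the Tert promoter change Tert-123C>T, and one with K5-Tert, in which the keratin 5 promoter drives Tert as a transgene. The 11 tumours that combine BrafV600E with a Tert allele were left out. Every library is described as naive, as taken at 20 weeks and as thyrocytes, which were sorted by a yellow fluorescent protein (YFP). The labels name thyroid tumour as the source of the pools as well. The number and sex of the mice in a pool, and the Cre line behind the YFP, were not given in the sources used here. The labels do not say that each tumour library is a separate animal, so p-values measure the spread between these samples. The series is about telomerase in Braf-driven thyroid cancer. This comparison asks how transcripts of Braf tumours differ from those of thyroid cells without the mutation, and 2 of the 3 pools on the reference side carry a Tert allele.

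Thyroid follicular cells make thyroid hormone on thyroglobulin (Tg). They import iodide through the symporter Slc5a5, couple it to thyroglobulin with the help of peroxide, and recover iodide with the deiodinases Iyd and Dio1. BrafV600E keeps the kinase Braf active, which drives MEK and ERK, and ERK raises transcription factors of the ETS family together with phosphatases that switch ERK off again. It is the most common mutation of human papillary thyroid cancer, in which loss of iodide-handling genes is well known.

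Values below are TPM, transcript abundances corrected for length and scaled to the same total in each library, in the order tumour 1 to 4 and then the wild-type, Tert-123C>T and K5-Tert pools. The depth behind them is unknown. The tumours resembled each other more than the pools did: Pearson's r of log2(TPM + 1) across tested genes was 0.953 to 0.968 among tumours, 0.781 to 0.882 among pools and 0.578 to 0.622 between a tumour and a pool. These r values describe genes that share a library. At least 1 TPM was reached by 13275 to 13904 genes in a tumour and by 11664 to 12262 in a pool. The noncoding RNA Rpph1 took 54.2% to 62.6% of all TPM in the tumours and 50.9% to 63.6% in the pools.

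Pax8, Nkx2-1, Foxe1 and the epithelial gene Epcam were present in all libraries. Of 12 tested thyroid follicular markers, which include these genes, 8 were lower in the tumours and 1 was higher. The 13 listed markers summed to 902 to 1186 TPM in the tumours and 26940 to 33610 TPM in the pools. Nearly all of each pool's sum was Tg, so the gap between these sums is mainly that of Tg. Epcam was 219.6, 361, 373 and 265 TPM in the tumours and 234, 133 and 352 TPM in the pools, and did not pass the test. The Tert-123C>T pool stood apart through markers of other cells. Its 23 listed T and NK cell markers summed to 313 TPM, against 7.53 to 21.7 TPM in the other 6 libraries. Its 17 endothelial markers summed to 2364 TPM, against 786 and 259 TPM in the other pools and 67.6 to 118 TPM in the tumours. C cell and neuroendocrine markers (12 genes) summed to 27.7 to 40.2 TPM in the tumours and to 466, 2209 and 259 TPM in the pools. The 22 macrophage and dendritic cell markers went the other way, with 789.5 to 1248 TPM in the tumours and 73.3, 371 and 99.2 TPM in the pools. Most of each tumour's sum was the lysozyme gene Lyz2, whose values are given below. The 9 pan-leukocyte markers summed to 144.3 to 216.1 TPM in the tumours and to 35, 243.8 and 30.24 TPM in the pools. For transcripts of such cells in bulk RNA, fewer cells and less RNA per cell cannot be told apart.

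Sex-linked transcripts also differed between the sides. Xist, the RNA of the inactive X chromosome, was 73.6, 64.0, 89.9 and 86.1 TPM in the tumours and 43.2, 10.9 and 1.29 TPM in the pools. The Y-linked gene Ddx3y was at most 0.80 TPM in the tumours and 11.3, 15.96 and 25.9 TPM in the pools. Sex therefore ran with the groups and cannot be told apart from the Braf mutation for single genes. With the Xist level as a covariate, 137 of 205 called and named genes other than Xist kept their call and 68 lost it. Xist did not overlap between the sides, so this covariate largely repeats the grouping and leaves 4 residual degrees of freedom. A call can be lost though the log2 difference grows, as in the collagen gene Col1a1 (3.20 to 3.57). Here and below, a call kept or lost with this covariate cannot tell genes that follow sex from others.

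**Figure D1:**
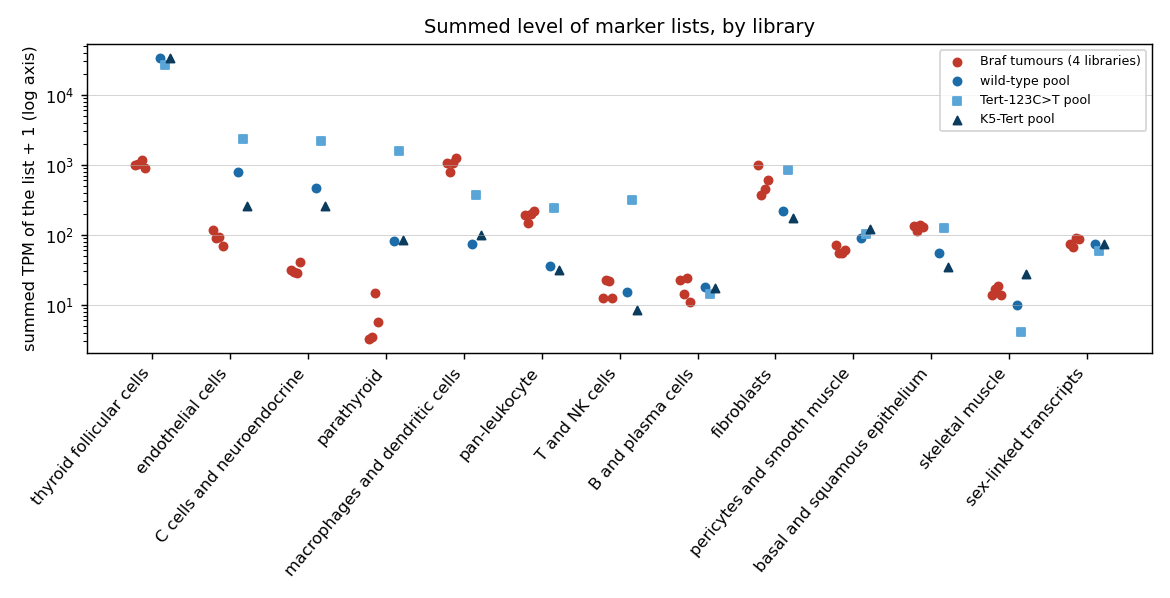
Summed TPM of each marker list plus 1, on a log axis, for the 4 Braf tumours (red) and the 3 pools (blue, 1 symbol per pool). Thyroid follicular markers summed to 902 to 1186 TPM in the tumours and 26940 to 33610 TPM in the pools. Nearly all of each pool's sum was Tg. Endothelial, C cell and parathyroid markers are highest in the Tert-123C>T pool, whose T and NK cell sum of 313 TPM stands alone.

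Tumours and pools differed in many genes, among them most of the genes that make a follicular cell produce hormone. A gene was tested when it reached 10 TPM in at least 3 of the 7 libraries, and was called when limma's adjusted p (Benjamini-Hochberg) was under 0.05. A gene under 10 TPM in all tumours was thus tested only if all 3 pools reached 10 TPM. A gene under 10 TPM in all pools needed at least 3 tumours at that level. Such genes could hardly be called in the opposite direction, which limits the list counts below. Of 7330 genes tested, 1230 (16.8%) were higher in the tumours and 765 (10.4%) were lower, 27.2% in either direction. The tumours lay above all pools for 1648 genes (22.5%) and below all pools for 1042 (14.2%). Among called genes, 854 rose at least 2-fold and 36 at least 32-fold, while 555 fell at least 2-fold and 14 at least 32-fold, all on the log2(TPM + 1) scale.

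The balance between rises and falls depended on the scaling. As deposited, the median log2 difference over all tested genes was 0.20 and 61.7% of the calls were rises. The median was 0.05 and the share 47.0% after TMM-type scaling, and 0.04 and 49.0% after quantile normalization. Under those scalings and with Rpph1 left out of the total, 965 rises and 759 falls remained called. The count of rises also moved with single libraries, from 719 without tumour 3 to 1978 without the K5-Tert pool. It was 734 without tumour 4, 780 without tumour 2 and 946 without tumour 1. Log2 differences below are tumour minus pool on the log2(TPM + 1) scale, with the standard error (SE) where given. Counts of rises and falls in a list are to be read beside 16.8% higher and 10.4% lower over all tested genes. With genes of any level tested, 2732 of 22064 genes rose and 1011 fell, and list counts so obtained are to be read beside these.

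**Figure D2:**
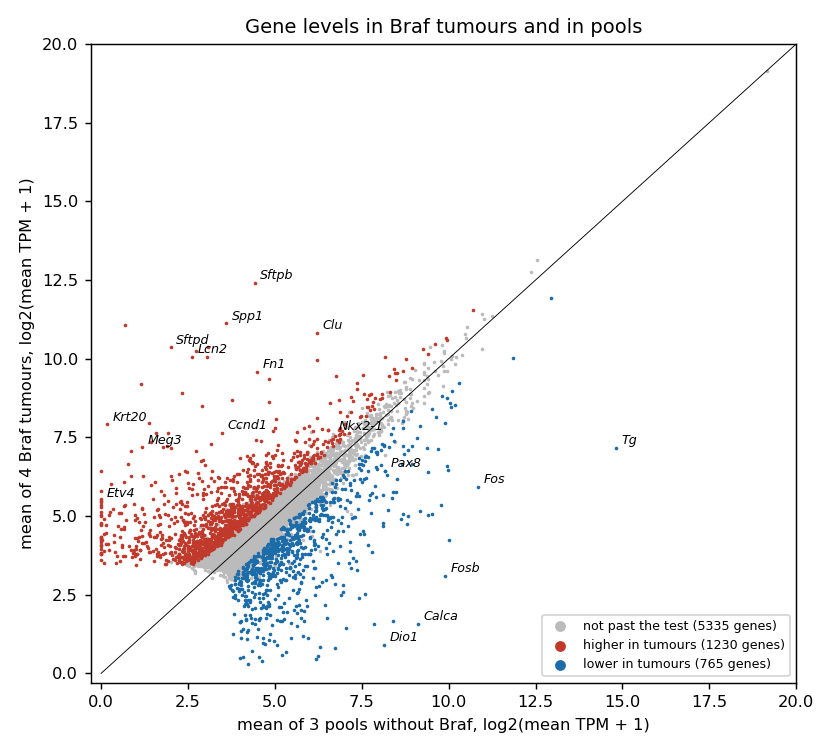
Mean level of each tested gene in the 3 pools (x axis) and the 4 Braf tumours (y axis), both as log2(mean TPM + 1), with the line of equal level. Red points are the 1230 genes called higher in tumours and blue points the 765 called lower; Tg sits farthest right below the line and Sftpb is among the highest above it.

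Tert, the catalytic subunit of telomerase, was low in the tumours. It was 4.96, 4.49, 5.12 and 3.78 TPM there and 2.15, 8.79 and 125 TPM in the pools. The tumours lay between the wild-type pool and the Tert-123C>T pool, and the K5-Tert pool was far above the rest. The log2 difference of -1.50 did not pass a two-sided exact permutation test (p = 0.3714, 35 arrangements), and it was 0.00 without the K5-Tert pool. Terc, the RNA template of telomerase, was 28.9, 7.77, 29.0 and 24.9 TPM in the tumours and 16.1, 0 and 0 TPM in the pools. The groups overlapped, and limma's call of a rise was lost without tumour 1, 3 or 4, without the K5-Tert or the Tert-123C>T pool, and under every other scaling tried. The log2 difference was 3.04 with all 3 pools, 0.31 against the wild-type pool alone and 0.28 with the Xist covariate. Braf itself was 5.92, 8.47, 9.03 and 9.03 TPM in the tumours and 8.68, 13.3 and 15.8 TPM in the pools (exact p = 0.08571). Its level says nothing about the mutation, which these values do not read.

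Of the 45 pathway lists, thyroid hormone synthesis had the lowest median difference. Of its 13 listed genes 9 were tested, 7 fell and 1 rose, where 10.4% of all tested genes fell and 16.8% rose. The median log2 difference was -4.39, against 0.20 for all genes. When genes of any level were tested, 8 fell and 1 rose, with a median of -3.62. The 7 falls held in every fit that left out 1 library, under all scalings, and with the Xist covariate. Thyroglobulin, the hormone's protein precursor, was 257, 96.5, 115 and 102 TPM in the tumours and 31240, 25680 and 30040 TPM in the pools. Every tumour was far below every pool, and the means of 143 ± 76.6 TPM (SD, n = 4) and 28990 ± 2929 TPM (n = 3) differed 203-fold (log2 difference -7.78 ± 0.33 SE, limma adjusted p = 2.3e-06). The iodide symporter Slc5a5 was 0.61, 1.75, 1.58 and 1.13 TPM in the tumours and 51.0, 49.3 and 65.3 TPM in the pools. Its groups did not overlap either (log2 difference -4.65). Slc26a7, an anion transporter of the follicular cell, fell from 120.3, 83.8 and 188 TPM in the pools to 1.10, 2.11, 3.11 and 0.44 TPM. Duoxa2, the maturation factor of the peroxide-making oxidase Duox2, fell by 4.67 on the log2 scale. Duox2 was too low to be tested, with at most 0.46 TPM in a tumour and 9.21 to 23.1 TPM in a pool.

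Deiodinases fell as well, but to different floors. Iyd, which recovers iodide from unused tyrosines, kept 41.3, 49.5, 48.5 and 20.0 TPM against 819, 481 and 1346 TPM. Dio1, the deiodinase that activates thyroid hormone, was almost gone, at 0.67, 0.33, 0.66 and 1.80 TPM against 294, 216 and 340 TPM (log2 difference -7.29, adjusted p = 2.2e-06). The groups were apart for both. The thyrotropin receptor Tshr was 10.8, 5.26, 5.67 and 6.59 TPM in the tumours and 12.9, 5.75 and 38.1 TPM in the pools. Its groups overlapped and it did not pass (log2 difference -0.98, adjusted p = 0.20), although it was called lower without the Tert-123C>T pool (-1.58). Tshr was also called lower with quantile normalization, library weights, and all 18 libraries with Braf and Tert allele terms. No other alternative called it. The single rise of the list, the chloride channel Ano1, was 21.1 to 27.3 TPM in the tumours and 5.64 to 16.1 TPM in the pools, and was not called without tumour 4 or without the wild-type pool.

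Genes of hormone transport and response fell too. Of 14 listed 5 were tested and all 5 were lower, where 10.4% of all tested genes fell. Their median log2 difference was -2.116. When genes of any level were tested, 7 fell and 1 rose, with a median of -0.757. Of the 5 falls, 3 held in every fit without 1 library. Among those were Dio1 and Klf9, a factor induced by thyroid hormone (log2 difference -2.12). Thrsp and Thra were lower with all libraries, and the count fell to 3 without tumour 2 or without tumour 3.

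The transcription factors that set thyroid identity did not move together. Of 5 tested, 2 rose and 2 fell, where 16.8% of all tested genes rose and 10.4% fell. Glis3, needed for hormone gene expression, rose from 11.1, 9.04 and 12.7 TPM to 34.7, 43.9, 51.9 and 41.9 TPM (log2 difference 1.88, adjusted p = 0.00025), in every fit without 1 library. Pax8, which activates Tg and Slc5a5, was 67.8, 89.8, 107 and 79.3 TPM in the tumours and 274, 126 and 460.5 TPM in the pools (log2 difference -1.56, adjusted p = 0.016). The groups were apart, but the call was lost without tumour 1 (adjusted p = 0.05012) and without the wild-type pool (0.05491). Foxe1 was 37.1 to 85.2 TPM in the tumours and 69.8 to 180.2 TPM in the pools, and its groups overlapped (log2 difference -1.12). Its call was lost in 5 of the 7 fits without 1 library, kept only without tumour 3 or the Tert-123C>T pool. Nkx2-1, a factor shared by thyroid and lung, was 198, 186, 222 and 174 TPM in the tumours and 131, 39.7 and 135 TPM in the pools. All tumours were above all pools, yet the difference of 1.12 did not pass (adjusted p = 0.06088), and it passed without the K5-Tert pool (1.41). It also passed with quantile normalization, library weights, a filter at 50 TPM and all 18 libraries in groups, and in no other alternative. Hhex rose (log2 difference 1.36), with the call lost without tumour 3, tumour 4 or the wild-type pool.

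**Figure D3:**
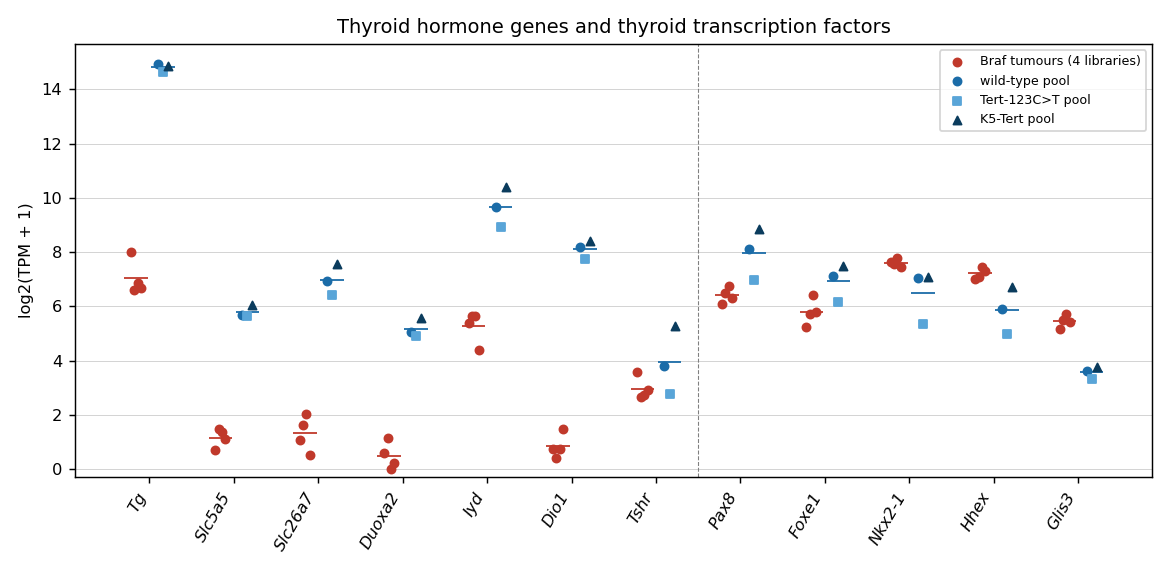
Log2(TPM + 1) of genes of hormone synthesis (left of the dashed line) and of thyroid transcription factors (right) in each library; short lines are group means. Tg, Slc5a5, Slc26a7, Duoxa2 and Dio1 are apart by 4 or more log2 units, while Pax8, Foxe1 and Nkx2-1 differ by under 2.

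Genes known from the lung were among the largest rises. Surfactant is the lipid and protein film of the lung's air sacs, made by alveolar type 2 cells, which also use Nkx2-1. Of 12 listed genes of surfactant and alveolar type 2 cells 9 were tested and 7 rose, with a median log2 difference of 4.72. Among all tested genes 16.8% rose. The 7 rises held in every fit without 1 library. When genes of any level were tested, 8 rose and 0 fell, with a median of 3.11. Sftpb, a surfactant protein and one of the human papillary cancer markers, was 3409, 5306, 5719 and 7423 TPM in the tumours and 6.38, 6.89 and 47.8 TPM in the pools. The lowest tumour was thus far above the highest pool (log2 difference 8.54 ± 0.60 SE, adjusted p = 2.3e-05). Sftpd was 1290, 1437, 1311 and 1238 TPM in the tumours and 0, 0.77 and 8.21 TPM in the pools (log2 difference 9.02). Sftpa1 was 1079, 915, 1629 and 1723 TPM against 0.97, 0 and 21.2 TPM (log2 difference 8.52). The K5-Tert pool was the highest pool for all 3 proteins.

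The rest of the alveolar list was mixed. Napsa, a protease that processes surfactant proteins, rose 13.5-fold in the means, from 50.5 to 105 TPM to 799.6 to 1176 TPM. Lamp3, of the surfactant storage organelle, was 14.3 to 39.6 TPM in the tumours and at most 0.20 TPM in a pool. The phosphate transporter Slc34a2 (log2 difference 5.88) and the surfactant lipid enzyme Lpcat1 (2.43) rose, both most in tumour 4, with 426 and 207 TPM. The lipid pump Abca3 did not pass, with 31.3 to 38.7 TPM in the tumours and 43.7 to 57.2 TPM in the pools. Sftpc, specific to alveolar type 2 cells, was at most 1.77 TPM in a tumour, and Scgb1a1 of airway club cells at most 2.44 TPM. The 11 airway and ciliated cell markers summed to 102 to 156 TPM in the tumours and to 99.7, 194 and 51.8 TPM in the pools. Of these 3 were tested and 1 rose: Cyp2f2, another club cell gene, was 49.3, 43.6, 61.2 and 88.4 TPM in the tumours and 17.8, 44.8 and 15.6 TPM in the pools. Its groups overlapped (log2 difference 1.29), and the call was kept only without tumour 2 or the Tert-123C>T pool and lost with TMM-type scaling. Ager, an alveolar type 1 gene, was called lower (log2 difference -1.27), a call kept only without tumour 2 or the Tert-123C>T pool.

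The start sites of 2 of these genes were read for the NKX2-1 core motif because Nkx2-1 acts on surfactant genes in the lung. The windows are the 250 bases before the RefSeq start site on GRCm38.p6, 5′ to 3′, for Sftpb at chr6:72304360-72304609 (plus strand) and Sftpa1 at chr14:41131538-41131787 (plus strand). Capitals mark CTCAAG, searched on both strands.
Sftpb: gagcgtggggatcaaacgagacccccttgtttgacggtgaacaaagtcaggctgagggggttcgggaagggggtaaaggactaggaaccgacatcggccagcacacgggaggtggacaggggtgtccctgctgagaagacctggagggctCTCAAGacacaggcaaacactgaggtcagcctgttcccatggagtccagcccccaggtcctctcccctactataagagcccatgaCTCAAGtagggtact
Sftpa1: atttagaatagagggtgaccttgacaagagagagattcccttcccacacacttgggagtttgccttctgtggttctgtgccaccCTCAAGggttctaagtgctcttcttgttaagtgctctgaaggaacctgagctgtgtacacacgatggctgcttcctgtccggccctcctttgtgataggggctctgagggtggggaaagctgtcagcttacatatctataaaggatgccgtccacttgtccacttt
The Sftpb window holds the motif beginning 100 and 15 bases before the start site, and the Sftpa1 window 166 bases before it. Some genes have several start sites, each with a window. The motif is common: it was in 11.8% of 7454 windows of tested genes, 11.5% of 1220 windows of genes called higher and 10.7% of 792 windows of genes called lower. A match of 6 letters is a description of the sequence and not a binding site.

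Other secreted proteins rose with the surfactant genes. Of 27 secreted and mucosal defence genes with values 12 were tested and 11 rose, with a median log2 difference of 3.59. The share of rises over all tested genes was 16.8%. All 11 rises held in every fit without 1 library. Of the 27 genes, 11 were under 1 TPM in every pool, and such a gene could be tested only through the tumours. When genes of any level were tested, 15 rose and 1 fell, with a median of 1.545. Lcn2, an iron-binding protein of innate defence, was 1163, 670, 1181 and 1253 TPM in the tumours and 1.68, 0 and 13.8 TPM in the pools. Chil1, a chitinase-like protein, was 1343, 562, 1708 and 1284 TPM against 0, 2.43 and 14.4 TPM. Spp1 (osteopontin), a secreted adhesion protein, was 2634, 1719, 2656 and 1897 TPM against 2.10, 9.79 and 21.4 TPM (log2 difference 7.91). In each of these genes the groups were apart and tumour 2 held the lowest tumour value. Clusterin (Clu), a secreted chaperone, was 1702, 2417, 1660 and 1477 TPM against 59.2, 52.9 and 106 TPM, with tumour 2 the highest. The haemoglobin-binding protein Hp was listed at 0 in all pools and at 11.1 to 19.0 TPM in the tumours.

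Further large rises were in genes of other organs and of embryonic tissue. Dcpp1, Dcpp2 and Dcpp3 encode near-identical secreted proteins of salivary glands, so reads may be split among them. Their sum was 5447, 930.3, 1464 and 6907 TPM in the tumours and 0, 6.62 and 28.9 TPM in the pools, a wide spread among tumours that still lay wholly above the pools. Dlk1, a Notch-like protein of embryonic tissue, was 553, 179, 535 and 1090 TPM against 0.11, 0 and 3.54 TPM. Meg3, a noncoding RNA of the same imprinted region, was 54.9 to 204 TPM against at most 2.71 TPM. Krt20, a keratin of gut and urothelium, was 158, 254, 234 and 316 TPM against 0, 0 and 0.37 TPM (log2 difference 7.72). Fetub, a secreted protease inhibitor, was listed at 0 in all pools and at 67.9 to 98.6 TPM in the tumours. Gzme, a granzyme, was 93.9 to 610.4 TPM in the tumours, while Vash2, an angiogenesis-related gene, was 92.3 to 189 TPM.

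**Figure D4:**
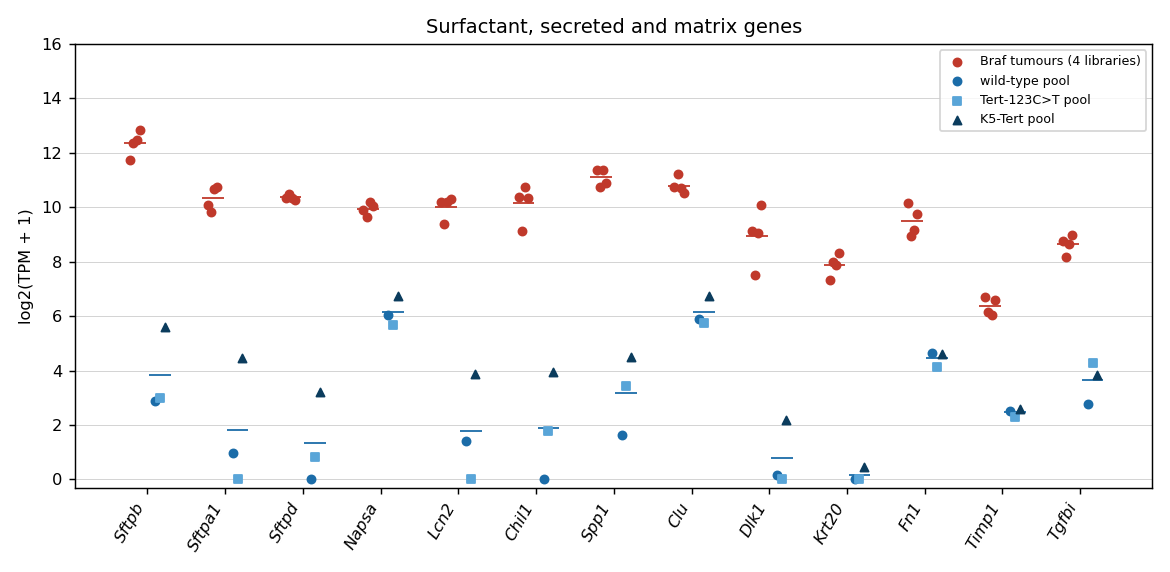
Log2(TPM + 1) of surfactant, secreted and matrix genes in each library; short lines are group means. In every gene shown the 4 tumours lie above the 3 pools, and the K5-Tert pool is the highest pool for Sftpb, Sftpa1 and Sftpd.

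Transcripts downstream of ERK moved in opposite directions. Among 33 tested ERK-induced transcription factors and targets 9 rose and 19 fell, where 16.8% of all tested genes rose and 10.4% fell. The median log2 difference of the list was -1.16. Of its calls, 7 rises and 18 falls held in every fit without 1 library. The Xist covariate left 5 rises and 15 falls. The ETS factors rose: Etv4 was 30.1, 47.5, 50 and 46.6 TPM in the tumours and listed at 0 in all pools. Etv1 rose from 0.83 to 1.65 TPM in the pools to 16 to 27.8 TPM, and Etv5 from 6.51 to 15.3 TPM to 23.2 to 29.2 TPM. Cyclin D1 (Ccnd1), which carries cells into the division cycle, was 155, 204, 208 and 226 TPM against 8.09, 13.5 and 8.93 TPM (log2 difference 4.17, adjusted p = 7.7e-06). The EGF receptor ligands Ereg (log2 difference 4.02) and Areg (1.79) rose, while Hbegf, another such ligand, fell (-2.09).

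Feedback inhibitors of ERK were likewise divided, with 6 rises and 5 falls among 14 tested. For the lists in this paragraph, the shares over all tested genes were 16.8% for rises and 10.4% for falls. The nuclear ERK phosphatase Dusp4 was 38.1, 64.1, 53.9 and 75.2 TPM in the tumours and 2.25, 7.04 and 4.87 TPM in the pools. Spred1 (log2 difference 2.21), Lzts1 (4.03) and the cytoplasmic ERK phosphatase Dusp6 (1.55) rose as well, and these 4 rises held in every fit without 1 library. Dusp1 and Dusp2, phosphatases induced within minutes by many stresses, fell by 3.42 and 2.35 on the log2 scale. The count of falls was 3 without tumour 1, 2 or 4. Upstream, Rasa1, Shc1 and Nf1 rose by 1.19 to 1.43; the 5 rises among 15 tested genes of the RAS, RAF, MEK and ERK chain became 3 without tumour 2, 3 or 4 or the Tert-123C>T pool.

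Among the ERK targets that fell were several immediate-early genes, which respond within minutes to growth factors or stress. Fosb was 4.87, 4.52, 12.3 and 8.53 TPM in the tumours and 788, 1105 and 982 TPM in the pools (log2 difference -6.89, adjusted p = 4.4e-06). Fos was 38.1, 21.7, 104 and 74.5 TPM against 1424, 1453 and 2608 TPM, and Atf3 was 9.87, 9.18, 30.8 and 22 TPM against 815, 847 and 1427 TPM. Tumour 3 was the highest tumour for all 3, and still below every pool. Jun (log2 difference -3.58), Egr1 (-3.40), Klf6 (-3.0), Fosl1 (-2.97) and the nuclear receptor Nr4a1 (-5.07) fell in the same way. Myc fell by 1.16.

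**Figure D5:**
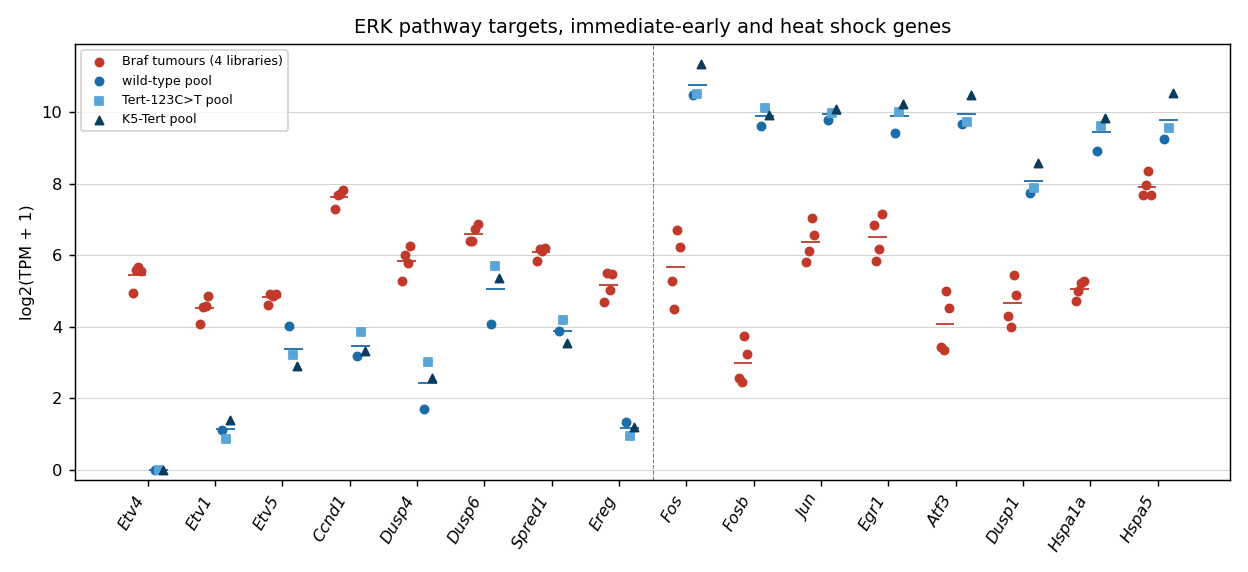
Log2(TPM + 1) of ERK targets and feedback genes that rose (left of the dashed line) and of immediate-early and chaperone genes that fell (right) in each library; short lines are group means. No tumour overlaps a pool in any gene shown, and Etv4 is listed at 0 in all pools.

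Of 16 cytosolic heat shock genes tested 11 fell and 0 rose, where 10.4% of all tested genes fell and 16.8% rose. Their median log2 difference was -1.36. Of the 11 falls, 10 held in every fit without 1 library, and 6 with the Xist covariate. Hspa1a and Hspa1b, near-identical stress-induced chaperones, summed to 91.0, 120, 121 and 134 TPM in the tumours and 953, 1618 and 1642 TPM in the pools. The small heat shock protein Cryab fell from 99.8 to 242 TPM to 8.69 to 14.2 TPM, and the co-chaperone Dnajb1 fell by 3.14 on the log2 scale.

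Of 27 tested chaperone and stress genes of the endoplasmic reticulum, where thyroglobulin folds, 16 fell and 1 rose. Among all tested genes 10.4% fell and 16.8% rose. Of the falls 12 held in every fit without 1 library, but 2 were left with the Xist covariate. Hspa5 (BiP), the main chaperone there, was 207, 248, 327 and 205 TPM in the tumours and 615, 761 and 1495 TPM in the pools. Dnajb9, its co-chaperone, was 17.0 to 25.2 TPM against 111 to 251 TPM (log2 difference -2.96). Manf, a secreted stress factor, fell by 1.67. The rise was Xbp1, a factor of the unfolded protein response (log2 difference 0.87), and it was not called without tumour 3, tumour 4 or the wild-type pool.

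Markers of human papillary thyroid cancer rose more often than they fell. Over all tested genes 16.8% rose and 10.4% fell. Of 49 listed genes 33 were tested, 16 rose and 4 fell, and 14 rises held in every fit without 1 library. Fibronectin (Fn1) was 1131, 495, 567 and 869.9 TPM in the tumours and 24.3, 16.8 and 23.5 TPM in the pools (log2 difference 5.03). The protease inhibitor Timp1 was 103, 69.9, 64.8 and 96.1 TPM against 4.72, 3.94 and 5.01 TPM. Galectin-3 (Lgals3), used in pathology, rose by 2.16, the adhesion receptor Cd44 by 1.91 and the chromatin protein Hmga2 by 4.07. Other known markers did not pass: Krt19 was 279 to 324 TPM in the tumours and 143 to 388 TPM in the pools, and the receptor Met was 9.04 to 18.5 TPM against 12.0 to 20.1 TPM. The falls were the kidney and thyroid cadherin Cdh16 (log2 difference -3.59), the metallothioneins Mt1 (-1.86) and Mt2 (-1.67), and S100a10 (-0.69). The list does not state which way each gene moves in the human cancer. Neither rises nor falls were therefore scored as a match or a mismatch with it.

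S100 and annexin genes, which encode calcium-binding proteins, split by member, with 8 rises and 4 falls among 20 tested. The shares over all tested genes were 16.8% for rises and 10.4% for falls. Anxa8 was 42.6, 29.3, 34.0 and 49.1 TPM in the tumours and at most 1.01 TPM in a pool. S100a6 rose from 90.7, 91.0 and 308 TPM to 413, 727, 630 and 623 TPM. S100a1 and S100b fell by 1.56 and 3.46. S100a8, better known from neutrophils, was listed at 0 in all pools and at 12.2 to 22.1 TPM in the tumours.

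Growth factor receptors and ligands differed by member. In the EGF receptor family 4 of 5 tested genes rose and 1 fell, and of 15 others 3 rose and 6 fell. For these and for the TGF-beta genes below, the shares over all tested genes were 16.8% for rises and 10.4% for falls. Erbb2 rose by 1.55 and Erbb3 by 0.90, the latter kept in only 2 of the 7 fits without 1 library. Fgfr1 rose from 10.6, 13.3 and 14.3 TPM to 40.1, 40.8, 41.2 and 41.0 TPM, while Fgfr2, the epithelial FGF receptor, fell from 70.1, 48.2 and 92.0 TPM to 15.7, 13.3, 18.5 and 10.8 TPM. The groups did not overlap for either receptor. The receptor Axl rose by 1.73 and the ligand Fgf1 fell by 2.61. Among 21 tested TGF-beta genes 8 rose and 4 fell, and 5 rises held in each fit without 1 tumour. Tgfbi, a matrix protein induced by TGF-beta, was 428, 290, 405 and 503 TPM in the tumours and 5.89, 18.6 and 13.3 TPM in the pools. The activin subunit Inhbb rose by 2.83 and the BMP target Id3 fell by 2.26. Vim, a mesenchymal filament gene, was 774, 827, 560 and 623 TPM against 48.7, 240 and 32.0 TPM (log2 difference 3.23).

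Matrix genes rose more often than they fell, as did all tested genes (16.8% rose and 10.4% fell), and some of them moved with fibroblast markers. Of 19 collagens tested 9 rose and 2 fell, and 5 rises held in every fit without 1 library. With the Xist covariate 3 rises and 0 falls were left. Col16a1 (log2 difference 3.33), Col5a2 (4.01) and Col18a1 (1.99) were among those 5. Col1a1, the main fibroblast collagen, was 239, 36.4, 73.0 and 105 TPM in the tumours and 2.82, 36.1 and 6 TPM in the pools. Tumour 1 was the highest, tumour 2 barely exceeded the Tert-123C>T pool, and the call was lost without the wild-type pool (adjusted p = 0.06426). The calls of Col1a2 and Col3a1, whose groups overlapped, were each lost in 5 of 7 such fits. The 14 fibroblast markers summed to 986, 368, 447 and 599 TPM in the tumours and 218, 839 and 176 TPM in the pools; of 6 tested 3 rose. Without 1 library the count ran from 0 (wild-type pool) to 5 (Tert-123C>T pool); it was 1 without tumour 1, 3 or 4 or the K5-Tert pool, 5 against the wild-type pool alone and 0 with the Xist covariate. Their part in the collagen values was not tested.

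The collagens that fell were a pair of type IV chains, which belong to basement membranes, whereas Col18a1, also a basement membrane collagen, rose. Col4a4 fell from 46.5, 23.9 and 83.0 TPM to 6.92, 14.5, 11.1 and 7.80 TPM, and Col4a3 also fell (log2 difference -1.41), a call lost without tumour 1, tumour 4 or the wild-type pool. Among the other matrix proteins Thbs1 (log2 difference -2.53), Nid2 (-2.56) and the metalloproteinase inhibitor Timp3 (-2.76) fell. The plasminogen activator Plat rose from 3.54 to 6.22 TPM to 26.4 to 51.6 TPM. The laminin chains Lamb1 and Lama3 fell by 1.14 and 1.44. Of 24 glycoproteins and proteoglycans tested 10 rose and 4 fell, where 16.8% of all tested genes rose and 10.4% fell. The rises became 5 without tumour 1 or the wild-type pool, 6 without tumour 4 and 4 with the Xist covariate.

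Myeloid markers rose in the tumours, and lymphoid markers stayed too low to be tested. Of 12 tested macrophage and dendritic cell markers 8 rose, where 16.8% of all tested genes rose. Of the 8 rises, 7 held in every fit without 1 library. With the Xist covariate 3 rises were left. Lysozyme (Lyz2) was 646, 446, 662 and 847 TPM in the tumours and 13.6, 40.3 and 29.1 TPM in the pools. The mannose receptor Mrc1 was 13 to 21.8 TPM against 0.77 to 1.71 TPM, and the myeloid adaptor Tyrobp was 49.7 to 59.1 TPM against 8.18, 15.7 and 0 TPM. C1qa, a complement gene of tissue macrophages, did not pass: it was 32.7 to 60.1 TPM in the tumours and 9, 71.8 and 6.87 TPM in the pools, highest in the Tert-123C>T pool. The general leukocyte gene Ptprc did not pass either, with 7.64 to 12.9 TPM against 2.06, 21.8 and 4.35 TPM. The defining T cell gene Cd3g was 0.93 to 2.50 TPM in the tumours, 96.1 TPM in the Tert-123C>T pool and listed at 0 in the other pools.

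Of 9 chemokines tested 3 rose and 1 fell. Of 28 listed, 10 were under 1 TPM in every pool and could be tested only through the tumours. With chemokines of any level tested, 8 rose and 2 fell, and 6 rose with Rpph1 left out of the total. For this list and those that follow, the shares over all tested genes were 16.8% for rises and 10.4% for falls. Ccl6, a myeloid chemokine, was 228, 111, 187 and 266 TPM in the tumours and 0.42, 8.00 and 0 TPM in the pools. Ccl9 (log2 difference 3.55) and Ccl17 (4.85) rose, and the stromal chemokine Cxcl12 fell (-2.65). Class II antigen presentation had 6 rises among 8 tested genes, with 3 left without tumour 1, tumour 4 or the wild-type pool and 1 left with the Xist covariate. H2-DMa rose from 2.56, 2.14 and 3.92 TPM to 20.2, 13.2, 20.9 and 22.9 TPM. The interleukin 1 antagonist Il1rn rose by 4.18, while Il1b fell by 2.07. Of 14 tested subunits and targets of NF-kB, an inflammatory factor, 6 fell, 1 rose and 7 did not pass. Nfkbia (log2 difference -2.08), Nfkbiz (-2.75) and Tnfaip3 (-2.42) were among the falls, of which 3 were left with the Xist covariate. Among interferon-stimulated genes 5 of 12 fell, led by Irf1 (-2.04), and 1 rose; the falls were 3 without tumour 1, 2 or 4. Of 9 tested complement genes 5 rose and 1 fell, with 8 rises without the Tert-123C>T pool and 3 with the Xist covariate. C3 rose by 2.01 and the complement inhibitor Cd55 by 3.82, while Cd59a, another inhibitor, fell from 78.0, 52.0 and 59.6 TPM to 11.8 to 14.2 TPM (log2 difference -2.19).

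Endothelial, C cell and parathyroid transcripts were lower in the tumours. Of 17 listed endothelial genes 7 were tested, all 7 were lower and 6 held in every fit without 1 library. Genes under 10 TPM in all tumours were tested only through the pools. When genes of any level were tested, 10 were lower and 1 was higher. The VEGF receptor Kdr was 3.77, 4, 3.68 and 2.50 TPM in the tumours and 69.5, 172 and 15.5 TPM in the pools. Calcitonin (Calca), the C cell hormone, was 1.12 to 3.20 TPM against 336, 1144 and 191 TPM, and parathyroid hormone (Pth) was 0, 0, 7.92 and 0 TPM against 26.3, 632 and 27.8 TPM. Both were highest in the Tert-123C>T pool and above all tumours in all pools. Of the 12 C cell and neuroendocrine markers 3 were tested and all 3 were lower, with a median log2 difference of -5.57. Scg2 lost its call without tumour 2, tumour 3, the Tert-123C>T pool or the wild-type pool. When C cell markers of any level were tested, 4 were lower and 1 was higher, with a median of -1.03. The peptide gene Grp fell by 5.88, and the muscle-related gene Lmod2 by 5.42; what cells express them here was not tested.

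Of 9 tested D cyclins, CDKs and CDK inhibitors 4 rose and 1 fell. The fall was not called without any 1 of the tumours, without the K5-Tert pool or without the wild-type pool. The rise of Cdkn1b (log2 difference 0.77) lost its call without tumour 2, 3 or 4 or the wild-type pool. It was also lost with TMM-type scaling, quantile normalization and centred medians. Beside Ccnd1, the CDK inhibitors Cdkn2a and Cdkn2b rose: Cdkn2a was 32.7, 27.9, 27.9 and 36.6 TPM in the tumours and listed at 0 in all pools. Cdkn2b was 45.3, 71.3, 61.3 and 92.6 TPM against 4.76, 6.87 and 7.72 TPM. Cdkn1a (p21) did not pass, at 69.7 to 81.1 TPM against 49.0 to 87.4 TPM. Of 14 tested genes of p53 and its targets 3 rose and 3 fell, with a median log2 difference of 0.18 against 0.20 for all genes. Trp53 rose by 1.54. Its target Btg2 fell by 2.26, while the target Bax rose by 0.87, a call kept in 3 of the 7 fits without 1 library. Of 40 proliferation genes 11 reached the level for testing and 2 rose, Mcm7 (log2 difference 1.47) and Mcm6 (0.94), where 16.8% of all tested genes rose. Mcm6 lost its call without any 1 of the tumours. The rises were 5 without the K5-Tert pool, 7 with Rpph1 left out of the total, and 15 when genes of any level were tested. Rises over all genes in those fits were 1978 of 7330, 1934 of 10400 and 2732 of 22064. The proliferation marker Mki67 was 6.32 to 8.66 TPM in the tumours and 0.19 to 3.56 TPM in the pools, too low to be tested.

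Genes of oxidant defence and metal binding fell or did not pass, except the copper protein Cp, which rose by 1.94. Of 18 tested genes of peroxide and oxidant defence 6 were lower and 0 higher, among them haem oxygenase Hmox1 (log2 difference -2.54), Prdx6 (-1.93) and Txnrd1 (-1.65). Mt1 was 707, 718, 1382 and 1347 TPM in the tumours and 3003, 3175 and 4797 TPM in the pools, with no overlap. With the Xist covariate 3 falls of oxidant defence and 0 falls of metal handling were left. The 71 nuclear genes of the respiratory chain had 9 falls and 0 rises as deposited, where 10.4% of all tested genes fell. The falls were 26 after TMM-type scaling, 5 without tumour 2 and 4 without tumour 4, and the Xist covariate left 0 falls and 2 rises. Falls over all tested genes went from 765 to 1289 with TMM-type scaling and to 295 with the Xist covariate. Cytosolic ribosomal protein genes had 12 rises among 75, where 16.8% of all tested genes rose. The rises were 5 without tumour 4 or the wild-type pool, 6 without tumour 2 or 3, 24 after quantile normalization and 51 with library weights. Rises over all 7330 tested genes were 1212 after quantile normalization and 2625 with library weights, against 1230 as deposited.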

How the data were processed

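RNA of YFP-sorted mouse thyroid cells was sequenced by a low-input messenger RNA protocol. The authors deposited 1 table of 23652 entries named by gene symbol, called normalized counts. Its values are TPM here, because each deposited column sums to 1000000; the aligner, build and quantification tool were not given in the sources used here. TPM keeps no depth, so no counting interval is given. Leaving out 26 entries whose symbols had become dates removed 0.0455% of the TPM or less from each library, no 2 columns were identical, and 23499 of 23626 names matched the mouse reference.

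Groups come from the genotype labels and replicate numbers from the order of the series. Genes with 10 TPM in at least 3 of the 7 libraries were fitted as log2(TPM + 1), tumours against the 3 pools as 1 side, with limma 3.58.1 in R 4.3.3 (mean-variance trend, with 5 residual degrees of freedom). All tests were two-sided with Benjamini-Hochberg adjustment across every tested gene at a threshold of 0.05. Tert and Braf were compared by exact permutation. The script was tested on simulated data. The alternatives were other pseudocounts, filters, scalings, weights and sets of libraries, Xist as a covariate, and leaving out each library.

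The 7 libraries and the 65 gene lists were chosen with earlier results of these data known. Genes were named by rule: 10 fixed genes, the 15 largest rises and 15 largest falls that hold under 3 further scalings and have a group mean of 50 TPM or more and no overlap, and up to 4 members per list with the smallest p (2, by value, where none passed). Further list members, and Meg3, Duox2, Mki67, Cd3g, Sftpc, Scgb1a1, Ptprc and Cdkn1a, were chosen after their values were seen. A few genes within this rule are not reported here. Promoter windows are from RefSeq on GRCm38.p6, and 5818 tested genes had one.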

Additional observations from a re-analysis of the deposited data

Results flagged for a closer look

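Among the 4 tumours, 10 named genes had 1 tumour farther from the nearest other than Dixon's 95% limit allows, as a share of the whole range. Chance gives about 1 in 20 groups, and 211 named genes were examined.

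In tumour 1, Tg was highest at 257 TPM, with the other tumours at 96.5 to 115 TPM. That tumour also held the highest Coro1a, a leukocyte actin regulator, at 32.9 TPM (others 26.4 to 27.2 TPM). It had the lowest Nf1, a brake on RAS, at 20.5 TPM (others 35.8 to 38.1 TPM), and the lowest chloride cotransporter Slc12a2, at 65.6 TPM (others 109.9 to 118 TPM).

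In tumour 2, the granzyme Gzme was highest at 610 TPM (others 93.9 to 146 TPM) and Lcn2 was lowest at 670 TPM (others 1163 to 1253 TPM). Its Ddx3y was highest at 0.8 TPM, near 0 as in the other tumours.

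In tumour 3, Pth was 7.92 TPM and listed at 0 in the other tumours. The proteasome activator Psme1 was highest there at 337 TPM (others 259 to 272 TPM), and so was Manf at 151 TPM (others 112 to 119 TPM).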

How the results depend on the processing

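The named genes were recomputed under 21 alternatives wherever they could be fitted (119 of them with the filter at 50 TPM), and 128 of 206 called and named genes kept their call in each fit that held them. The 1230 rises became 2732 with no filter, 386 with a filter at 50 TPM (1551 genes tested), 1934 without Rpph1 in the total, 2625 with library weights and 2024 against the wild-type pool alone, which is assumed to vary like the tumours. Leaving out 1 library gave 719 (tumour 3) to 1978 (K5-Tert pool). The 765 falls became 233 at 50 TPM, 1289 with TMM-type scaling, 1263 with quantile normalization, 1187 without Rpph1, 1194 with centred medians and 295 with Xist as a covariate, and 547 (tumour 4) to 950 (Tert-123C>T pool) without 1 library. The Tert difference was -2.66 to 0.00 without 1 library. Braf passed without Rpph1 in the total (difference -0.59, exact p = 0.02857) and was -0.78 to -0.39 without 1 library. Apart from fewer genes tested under the stricter filter, the cause of these moves was not tested. No paired analysis was possible because the replicate numbers follow the order of the series and each pool is a single library. Depth is unknown, which limits every low value.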

Other observations

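Of 12 tested clock genes 5 fell, 0 rose and 7 did not pass. Nr1d1, a repressor of the clock and the member with the smallest p, was 20.3, 21.2, 19.4 and 22 TPM in the tumours and 129, 106 and 84.5 TPM in the pools (log2 difference -2.29, limma adjusted p = 6.3e-05). Per1, Clock and Rora fell by 1.33, 1.26 and 1.32. The labels give no time of day of collection. YAP target genes went both ways, with 4 rises and 4 falls among 17, where 16.8% of all tested genes rose and 10.4% fell. The median log2 difference was 0.16, against 0.20 for all genes. Cyr61, a standard YAP target that is also an immediate-early gene, was 52.8, 51.6, 45.2 and 61.3 TPM in the tumours and 336, 240 and 441 TPM in the pools. The tumours were below every pool in Cyr61 and F3 (log2 difference -3.30) and above every pool in Axl (1.73) and Amotl1 (1.59).

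Some lipid synthesis genes rose, but most did not pass. The fatty acid synthase Fasn was 123.1, 102, 155 and 124 TPM in the tumours and 22.98, 29.1 and 28.5 TPM in the pools (log2 difference 2.18), and its regulator Srebf1 rose by 1.35. Of 15 such genes 5 rose, 2 fell and 8 did not pass, where 16.8% of all tested genes rose and 10.4% fell. Their median log2 difference was 0.06, against 0.20 for all genes, and 3 rises were left without any 1 of the tumours. The potassium channels Kcnk5 and Kcnj16 fell by 3.69 and 3.05, and the chloride cotransporter Slc12a2 rose by 1.81. In the 250 bases before the start site, CCGGAAGN, an ETS motif, was present in 14.3% of windows of tested genes, 13.1% of genes called higher and 5.93% of genes called lower. AP-1 motifs (TGANTCA) were present in 4.35%, 5.33% and 4.42% of these windows. Both were searched on both strands, and the shares are a description with no test.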
